A study of Mus musculus with 13 samples.

Results

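Of 33410 glucocorticoid receptor (GR) binding sites called in dKO mouse liver, 3703 had no GR peak of control liver within 500 bp, measured from centre to centre. These 3703 dKO-only sites (11.1% of the dKO sites, 95% Clopper-Pearson interval 10.7 to 11.4%) are described here. They were chosen by measured values, the GR peak calls themselves. Peaks of the dKO vehicle and dKO dexamethasone lists that shared at least 1 bp were first merged into 1 site, and each site was then compared with both control GR lists. The other 29707 dKO sites, which do have a control peak within that distance, serve for comparison and are called shared sites.

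All livers came from male mice, and control animals carry the genotype label GFP and dKO animals the label CRE, a knockout that includes the corepressor NCOR1. The promoter or vector that supplies Cre, the age and the strain were not given in the sources used here. Animals received 1 mg/kg dexamethasone, a synthetic glucocorticoid, or saline vehicle by intraperitoneal injection at zeitgeber time 8, and liver was taken 2 h later, at zeitgeber time 10. GR was mapped by chromatin immunoprecipitation and sequencing (ChIP-seq) in all 4 combinations of genotype and treatment, with 2 libraries for each. For NCOR1 there was 1 library of control liver under vehicle, 2 of control liver under dexamethasone and 1 of dKO liver under vehicle, and none of dKO liver under dexamethasone was used here. A single input library, from control vehicle liver, was made as well. Each list pools the libraries of its group, so the spread between animals is not known, and every interval and p describes these lists and not a population of mice.

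GR is a nuclear receptor that moves to chromatin when it binds a glucocorticoid, and in hepatocytes it drives genes of gluconeogenesis and amino acid catabolism and restrains inflammation. It binds DNA at paired hexamers related to AGAACA. NCOR1 is a large scaffold protein that ties the histone deacetylase HDAC3 to nuclear receptors and thereby holds genes in a repressed state. Many receptors served by NCOR1, such as those for thyroid hormone, heme or fatty acids, use hexamers related to AGGTCA.

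The sequences that follow show dKO-only sites that overlapped a promoter window, from 250 bp before to 50 bp after an annotated gene start. Only the Ninj1 and Nr6a1 peaks reach the start itself. They were picked after the values were seen, because they include the strongest promoter site and sites at genes for nuclear receptors and lipid uptake. Each is the stretch of the GR peak that lies before the gene's start, 5′ to 3′ on the gene's strand, from RefSeq promoter windows of GRCm38.p6, the assembly that mm10 names. Capitals mark AGGTCA (a nuclear receptor half-site), GGGCGG (a GC box), CCGGAA (an ETS core) and CCAAT, each on either strand.
Ninj1, chr13:49187467-49187528, plus strand: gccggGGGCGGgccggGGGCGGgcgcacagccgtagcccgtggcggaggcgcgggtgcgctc
Ccdc85c, chr12:108275420-108275620, minus strand: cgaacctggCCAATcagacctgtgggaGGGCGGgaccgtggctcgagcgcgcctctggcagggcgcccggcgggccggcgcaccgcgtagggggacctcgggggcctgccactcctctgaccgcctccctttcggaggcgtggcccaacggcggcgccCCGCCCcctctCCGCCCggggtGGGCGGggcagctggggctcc
Arl5b, chr2:15055070-15055264, plus strand: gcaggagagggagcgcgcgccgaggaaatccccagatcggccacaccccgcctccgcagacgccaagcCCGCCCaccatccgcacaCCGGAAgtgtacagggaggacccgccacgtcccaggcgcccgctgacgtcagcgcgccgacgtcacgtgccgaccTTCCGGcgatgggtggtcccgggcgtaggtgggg
Nr6a1, chr2:38784516-38784653, minus strand: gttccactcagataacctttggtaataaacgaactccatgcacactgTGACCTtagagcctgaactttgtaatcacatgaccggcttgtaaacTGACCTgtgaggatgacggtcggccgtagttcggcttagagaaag
Thrb, chr14:17660710-17660910, plus strand: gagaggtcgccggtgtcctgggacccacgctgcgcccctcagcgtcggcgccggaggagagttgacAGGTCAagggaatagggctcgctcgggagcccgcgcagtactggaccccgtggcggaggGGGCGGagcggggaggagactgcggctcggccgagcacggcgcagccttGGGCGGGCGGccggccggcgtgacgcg
Cd36, chr5:17835926-17836126, minus strand: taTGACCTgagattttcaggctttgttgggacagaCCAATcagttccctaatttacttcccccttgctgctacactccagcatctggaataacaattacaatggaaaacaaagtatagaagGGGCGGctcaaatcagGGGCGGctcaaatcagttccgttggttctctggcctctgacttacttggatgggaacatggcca

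None of the 6 stretches holds AGAACA or its reverse complement TGTTCT, which says only that these letters are not in them. The Nr6a1 stretch, at the gene of an orphan nuclear receptor, holds AGGTCA 2 times, both as TGACCT. The Thrb stretch, at the thyroid hormone receptor beta gene, and the Cd36 stretch, at the gene of a fatty acid transporter, hold it 1 time each. The Ccdc85c stretch holds the GC box 4 times. A match is a description and not a binding site.

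The 4 GR lists rested on 27.5 to 31.9 M tags (M for mega; a tag is an aligned read), and the 3 NCOR1 lists on 17.5 to 36.9 M. The dKO GR lists were deeper than their control counterparts, yet they held fewer peaks (23362 and 28378 against 30011 and 40853) and a smaller share of tags in peaks (3.4 against 5.0% under vehicle and 4.1 against 7.23% under dexamethasone). The mean fragment length in the file headers was 164 and 160 bp in the dKO lists and 140 and 142 bp in the control lists. The NCOR1 list of dKO vehicle held 17282 peaks against 39458 in control vehicle at a like depth. Whether its remaining peaks are residual NCOR1 was not tested. GR peaks of dKO liver lay near 27 of the 30 hepatocyte identity genes and 5 of the 14 markers of Kupffer cells and other leukocytes, but also near 15 of 23 markers of endothelial, stellate and bile duct cells and 17 of 20 neuronal genes. Over all protein-coding genes it was 11196 of 21896. Peaks near a gene do not measure its expression.

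The dKO-only sites were mostly weak, and few were called under both treatments. Only 349 (9.42%, interval 8.50 to 10.4%) were in both dKO lists, while 1372 (37.1%) were called under vehicle only and 1982 (53.5%) under dexamethasone only. Of the shared sites, 17981 (60.5%) were in both. These values belong to the calls that chose the sites and are given as a description, with no test.

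Strength is given as the normalized tag count, the tags in a peak scaled to 10 M tags per list. In the dKO vehicle list the 1721 dKO-only sites ranged from 4.33 to 35.6 with a median of 6.42, against a median of 13 for shared sites. In the dKO dexamethasone list the 2331 dKO-only sites ranged from 4.23 to 43.7 with a median of 6.74, against 11 for shared sites. Most of the dKO-only sites therefore stood near the lower end of both lists, although the ranges overlapped. Only 79 (4.59%) exceeded the median of the whole vehicle list, 12.4, and 361 (15.5%) that of the dexamethasone list, 10.7. The median counts correspond to 20.0 and 21.5 tags before scaling, and 1314 (76.4%) and 1548 (66.4%) of the peaks rested on fewer than 25 tags.

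**Figure D1:**
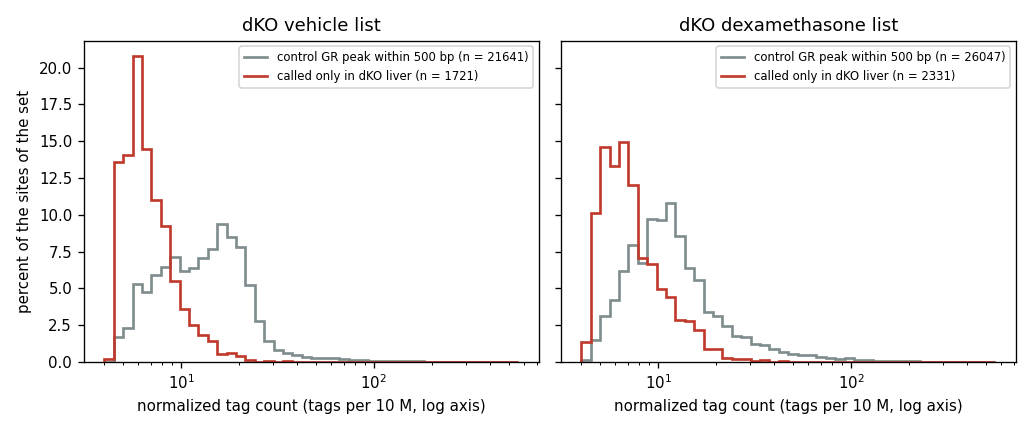
Distribution of the normalized GR tag count (tags per 10 M, log axis) in the dKO vehicle and dKO dexamethasone lists, as a percent of the sites of each set. Sites called only in dKO liver (red) centre near 6.42 and 6.74, and sites with a control GR peak within 500 bp (grey) near 13 and 11.

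Enrichment over the surrounding 10 kb, for which a peak needed at least 4-fold, was low at these sites. Its median was 4.91-fold under vehicle and 5.07-fold under dexamethasone, against 8.68-fold and 8.02-fold at shared sites. Below 5-fold lay 913 (53.1%) of the vehicle and 1108 (47.5%) of the dexamethasone peaks of dKO-only sites, whereas 15.5% and 14.8% of the peaks of shared sites did. Enrichment over input had medians of 7.25-fold and 7.47-fold, against 12.2-fold and 11.1-fold, and rested on a median of 1.5 and 2 input tags in a dKO-only peak.

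The share of dKO sites that were dKO-only fell with strength. It was 33.1% in the weakest of 5 equal classes of dKO sites (4.23 to 7.06 tags per 10 M), 14.2% in the next, then 5.61%, 1.83%, and 0.688% (46 of 6682) in the strongest class, at 19.7 and above. In the mirror comparison 16362 of 46288 merged control sites (35.3%) had no dKO peak within 500 bp. Over the same 5 ranges of tag count that share was 73.3, 55.9, 36.9, 17.5 and 7.39%, higher than its dKO counterpart in each range. The control-only sites had a median of 8.49 tags per 10 M, and 3431 of them (20.97%) were in both control lists.

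Among the 349 dKO-only sites in both dKO lists, the normalized tag count was higher under dexamethasone than under vehicle at 222 (63.6%), with a median ratio of 1.10 (10th to 90th percentile 0.821 to 1.64). At shared sites in both dKO lists it was higher at 45.6%, with a median ratio of 0.917. With replicates pooled, neither ratio has an error between animals.

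The strongest of the dKO-only sites in both lists, at chr12:83986793-83987008 and 960.5 bp from Acot2, a mitochondrial acyl-CoA thioesterase gene, had 20.1 tags per 10 M under vehicle and 43.7 under dexamethasone. A site 31414 bp from Mical2, an actin-oxidizing enzyme gene (chr7:112194298-112194524), had 9.63 and 43.7. The site 6515 bp from Tat, the tyrosine aminotransferase gene and a classical glucocorticoid target (chr8:109979462-109979664), had 16.7 and 31.7. All 8 of the strongest sites in this class were higher under dexamethasone than under vehicle, against 63.6% of the whole class. The 8 were ranked by the higher of their 2 values, so this is no measure of a drug response.

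The other 5 sites of that class ranged from 7.71 to 18.5 under vehicle and from 23.3 to 34.3 under dexamethasone. They lay in Synpo, a podocyte and synapse actin-associated protein, in Slc16a12, a monocarboxylate transporter family member, in Babam2, and near Sik3, a salt-inducible kinase, and Ints10, a subunit of the Integrator complex.

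The sites called under vehicle only were led by one 78055 bp from Ptpn1, a tyrosine phosphatase gene (chr2:167852595-167852795), with 35.6 tags per 10 M. A control dexamethasone peak of 195.5 stood 878 bp away. Next came sites near Slc45a1 (27.5) and in Ninj1, a mediator of plasma membrane rupture (23.8), Tmem115 (22.0), Susd6 (21.2), Cep85l (20.4), Atp5d, a subunit of mitochondrial ATP synthase (20.2), and Cebpd, a glucocorticoid-responsive C/EBP factor (19.9). The Cep85l, Atp5d and Cebpd sites also stood beside strong control peaks, of 139.2, 233.4 and 150.5, at 3685, 4378 and 2301 bp.

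The sites called under dexamethasone only were led by one 1043 bp from Dusp1, a MAP kinase phosphatase that glucocorticoids induce (chr17:26509415-26509615). It had 36.4 tags per 10 M and a control vehicle peak of 48.1 at 3163 bp. Its fold over the local 10 kb was 4.03, barely above the 4-fold required. Sites followed in Snx18 (34.5), a sorting nexin, Prkce (30.9), a protein kinase C, and Creb3l2 (30.2), a membrane-bound bZIP factor. Next were sites near Smarcd1 (28.5), a SWI/SNF subunit, Apoa4 (27.4), an apolipoprotein, and Klf15 (26.8), a factor of amino acid catabolism, and in Susd1 (26.0). The nearest control peak of the Prkce site had 225.3 tags per 10 M and that of the Klf15 site 152.4. The local folds of these sites were 4.42 and 4.51.

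**Figure D2:**
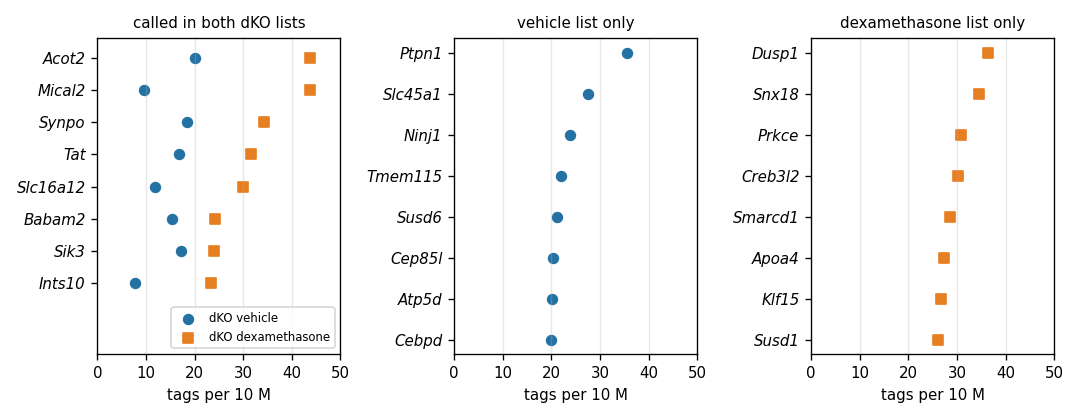
Normalized GR tag count (tags per 10 M) of the 8 strongest dKO-only sites in each class, named by the nearest protein-coding gene, with circles for the dKO vehicle list and squares for the dKO dexamethasone list. The sites in both lists are all higher under dexamethasone, from Ints10 (7.71 and 23.3) to Acot2 (20.1 and 43.7), and no point stands where a list made no call.

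All 20 of the strongest dKO-only sites had a control GR peak within 5 kb. By the higher value of the dKO lists, 15 of the 20 had a local fold below 8 and 6 had one below 5. Over all 3703, the nearest control peak lay at a median of 9397 bp (quartiles 3649 and 23436 bp), and 1923 (51.9%) had one within 10 kb. A control peak within 1 kb was present at 275 sites (7.43%), and the nearest lay at 1 to 5 kb at 897 (24.2%). No control peak lay within 50 kb at 378 (10.2%). The 20 strongest thus had a control peak within 5 kb more often than dKO-only sites in general. The tag count and the local fold differed with distance in different ways. The median tag count was 7.71 within 1 kb, 8.46 at 1 to 5 kb, 6.58 at 5 to 10 kb, 6.03 at 10 to 50 kb and 5.78 beyond, whereas the median fold over the local 10 kb was 4.66, 4.57, 4.93, 5.36 and 6.28. The part of neighbouring control peaks in the counts of the strong sites was not tested.

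At the edge of the rule, 93 dKO-only sites had their nearest control peak at most 100 bp beyond the limit, with a median of 7.22 tags per 10 M, and 128 sites failed it by at most 100 bp, with a median of 7.77. The strongest just inside were at Susd1 (26.0, 544 bp), Ninj1 (23.8, 573 bp) and Foxn3 (21.5, 510 bp). The strongest just outside were at Tns1 (29.8, 497 bp), Ppara (26.0, 464 bp) and near Sptlc2 (24.7, 460 bp). Sites on either side of the limit were thus similar in strength.

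The NCOR1 lists were not used to choose the sites. The rule did use GR calls of control liver, so NCOR1 calls of control liver are not independent of it. NCOR1 peaks of control liver were less frequent at dKO-only than at shared sites. A peak of the control vehicle NCOR1 list overlapped 1195 dKO-only sites (32.3%, interval 30.8 to 33.8%), against 44.6% (44.0 to 45.2%) of shared sites and 43.2% of all dKO sites. At equal strength, over 5 classes of GR tag count, the Mantel-Haenszel odds ratio was 0.478 (95% interval 0.442 to 0.517), with a p of 1.72e-78 in the Cochran-Mantel-Haenszel chi-square test after Benjamini-Hochberg adjustment over 8 tests. For the control dexamethasone NCOR1 list the counts were 1143 (30.9%, 29.4 to 32.4%) against 48.6% of shared sites and 46.6% of all, with an odds ratio of 0.368 (0.340 to 0.398) and an adjusted p of 7.67e-143 in the chi-square test. The lower share was seen among sites called in 1 dKO list and not among those in both, where 46.4% of dKO-only and 44.3% of shared sites had a control vehicle NCOR1 peak and 48.1% and 46.7% a control dexamethasone one. Sites are not independent replicates, so these p-values are too small to read as evidence across animals.

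The gap varied between the classes. In the weakest class 28.4% of dKO-only and 49.0% of shared sites overlapped a control vehicle NCOR1 peak, and 27.5% and 54.8% a control dexamethasone one. In the fourth class the shares were 28.7 and 30.0%, and 32.0 and 32.6%, so that no difference was detectable there among 122 dKO-only sites. In the strongest class 12 of 46 (26.1%, 14.3 to 41.1%) and 8 of 46 (17.4%, 7.82 to 31.4%) had such peaks, against 41.0% and 45.6% of shared sites.

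NCOR1 peaks of dKO liver gave another picture. They overlapped 697 dKO-only sites (18.8%, 17.6 to 20.1%), against 15.1% of shared sites and 15.5% of all. Over classes of strength the ratio was 1.01 (0.919 to 1.11; adjusted p = 0.832, chi-square test), so a difference was not shown. That value depended on the setting: it was 1.28 (1.14 to 1.44) in the dKO vehicle list alone and 0.875 (0.797 to 0.960) over classes of local fold instead of tag count.

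**Figure D3:**
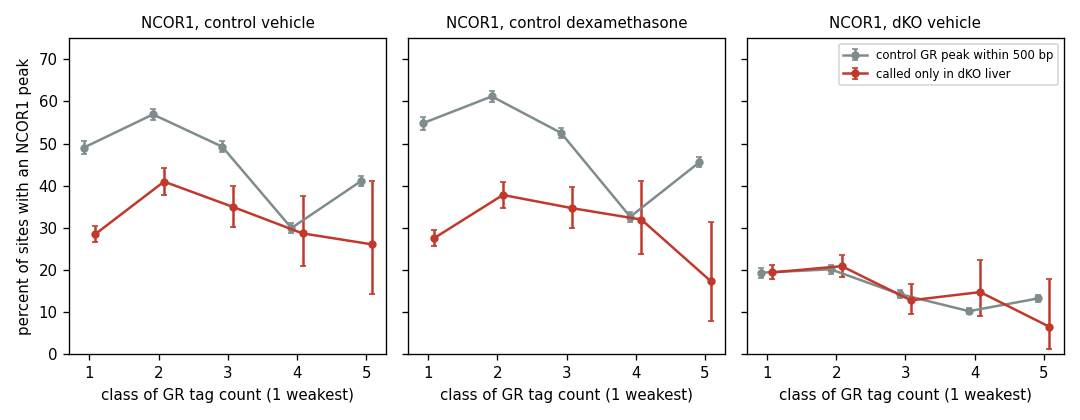
Percent of dKO GR sites that overlap an NCOR1 peak, by class of normalized GR tag count from 1 (weakest) to 5 (strongest), with bars for 95% Clopper-Pearson intervals. For the control NCOR1 lists the dKO-only sites (red) lie below the shared sites (grey) in classes 1, 2, 3 and 5 and near them in class 4; for the dKO NCOR1 list the intervals overlap in each class.

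By pattern there were 1905 dKO-only sites (51.4%) with no NCOR1 peak in any list, 1101 (29.7%) with one in control liver only, 454 (12.3%) with one in control and in dKO liver, and 243 (6.56%, 5.79 to 7.41%) with one in dKO liver only. Among shared sites the shares in the same order were 45.1, 39.8, 13.2 and 1.81% (539 sites, 1.67 to 1.97%). These shares were not matched on strength. The rule used GR calls of control liver, so patterns defined by control NCOR1 calls are not independent of it. Peaks of all 3 NCOR1 lists met at 257 dKO-only sites (6.94%) and at 10.4% of shared sites.

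Against the 16362 control-only sites, the mirror set, the dKO-only sites had fewer NCOR1 peaks of control liver and more of dKO liver. This comparison was not among those planned. Both sets were chosen by a GR call in 1 genotype and none in the other. NCOR1 calls of the same 2 genotypes are not independent of that choice, so the direction may follow from it. The control vehicle NCOR1 list overlapped 47.0% of control-only sites (odds ratio for dKO-only 0.705, 0.651 to 0.762; adjusted p = 1.14e-18, chi-square test). The control dexamethasone list overlapped 48.6% (0.595, 0.550 to 0.643; adjusted p = 5.04e-39, chi-square test). The dKO vehicle list overlapped 11.9% (1.68, 1.52 to 1.85; adjusted p = 2.19e-24, chi-square test). The 2 sets come from lists of different depth and fragment length, whose part in this was not tested.

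NCOR1 peaks at dKO-only sites were weak for control liver. Their median was 12.4 tags per 10 M under vehicle and 10 under dexamethasone, against 22.8 and 16.7 at shared sites. In the dKO vehicle list the medians were 10.3 and 10.9. A few sites carried strong NCOR1 peaks all the same. These were picked after their values were seen, apart from Nr0b2 and Mlxipl.

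The site 973.5 bp from Nr0b2, the SHP corepressor of bile acid synthesis (chr4:133557551-133557768), had GR counts of 14.3 under vehicle and 16.9 under dexamethasone. Its NCOR1 counts were 154.7 in control vehicle, 106.2 in control dexamethasone and 16.9 in dKO vehicle. A site 7730 bp from Bcl6, a transcriptional repressor, had a GR count of 13.2 under vehicle and NCOR1 counts of 130, 148.3 and 25.2. A site 438 bp from Lpcat3, a phospholipid-remodelling enzyme, had a GR count of 7.87 and NCOR1 counts of 96.2, 128.8 and 61.0. The site in Mlxipl, which encodes the sugar-sensing factor ChREBP (chr5:135104347-135104601), had GR counts of 13.8 and 17.1, NCOR1 counts of 92.8 and 105.4 in control liver, and no dKO NCOR1 peak. The largest NCOR1 count, 235.4 under control dexamethasone, stood at a weak GR site (5.46) in 1700010I14Rik, with a count of 98.8 in dKO vehicle. NCOR1 counts were lower in dKO than in control vehicle at each of these sites that had a dKO peak. Apart from Nr0b2 and Mlxipl, the sites were picked by their largest NCOR1 count, which was a control count at each. The order was not general: the Cd36 site had 7.31 in control vehicle and 10.3 in dKO vehicle.

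Of the 20 strongest dKO-only sites, 7 overlapped an NCOR1 peak: 5 of control vehicle, 3 of control dexamethasone and 2 of dKO vehicle. Of all 3703 dKO-only sites, 1905 (51.4%) had no NCOR1 peak in any list, so 7 of 20 is no excess. The 7 include the Tat site (67.0 and 31.4 in control vehicle and control dexamethasone), the Ptpn1 site (76.8 and 40.8) and the Klf15 site (32.6 and 26.7), as well as the Sik3 (38.5) and Apoa4 (23.1) sites in control vehicle alone. The Synpo site (15.7) and the Creb3l2 site (14.0) had an NCOR1 peak in dKO vehicle alone.

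Position was not used by the rule either. Inside a protein-coding gene lay 2054 dKO-only sites (55.5%), against 55.4% of shared sites and 55.4% of all dKO sites. Over classes of strength the ratio was 1.10 (1.02 to 1.18; adjusted p = 0.0193, chi-square test), but it was 1.05 (0.969 to 1.13) when sites were also matched on which dKO lists called them, and 0.845 (0.786 to 0.910) over classes of local fold. Within 1000 bp of a gene's start or end lay 658 dKO-only sites (17.8%, 16.5 to 19.04%), against 13.4% of shared sites and 13.9% of all, with an odds ratio of 1.32 (1.19 to 1.46; adjusted p = 7.17e-08, chi-square test). That ratio was 1.93 in the dKO vehicle list alone and 0.963 in the dexamethasone list alone, and 1.23 (1.11 to 1.36) when sites were also matched on the calling lists. Over classes of local fold it was 1.10 (0.998 to 1.21) and did not pass the threshold.

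Gene starts taken from the stranded promoter table gave the same direction. A start lay within 1000 bp of 530 dKO-only sites (14.3%, 13.2 to 15.5%) and of 10.6% of shared sites (odds ratio 1.30, 1.16 to 1.45). In the 500 bp before and the 500 bp after the start lay 184 (4.97%) and 266 (7.18%) of the dKO-only sites, against 3.89 and 4.64% of shared sites. The sites called under vehicle only carried most of this. Of them 329 (24.0%, 21.7 to 26.3%) were near a start, against 170 (8.58%, 7.38 to 9.90%) of the sites called under dexamethasone only and 31 (8.88%) of those in both lists. Shared sites showed the same order, with 20.5% of vehicle-only, 6.91% of dexamethasone-only and 10.2% of sites in both lists.

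NCOR1 overlap also differed with the lists that called a site, in another order for the control NCOR1 lists. Control vehicle NCOR1 peaks overlapped 39.1% of dKO-only sites under vehicle only and 25% of those under dexamethasone only, against 53.5% and 41.2% of shared sites. For control dexamethasone NCOR1 the shares were 35.6% and 24.6%, against 50.3% and 52.1% of shared sites. For the dKO vehicle NCOR1 list the shares in both lists, under vehicle only and under dexamethasone only were 22.3% (18.1 to 27.1%), 28.6% (26.3 to 31.1%) and 11.4% (10.0 to 12.9%), against 15.04, 23.8 and 11.1% of shared sites. Near a gene start, NCOR1 of control vehicle was found at 43.6% of dKO-only and 45.3% of shared sites, while farther away it was found at 30.4% and 44.5%. The lower share at dKO-only sites was thus seen away from gene starts. No test of that difference was made.

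**Figure D4:**
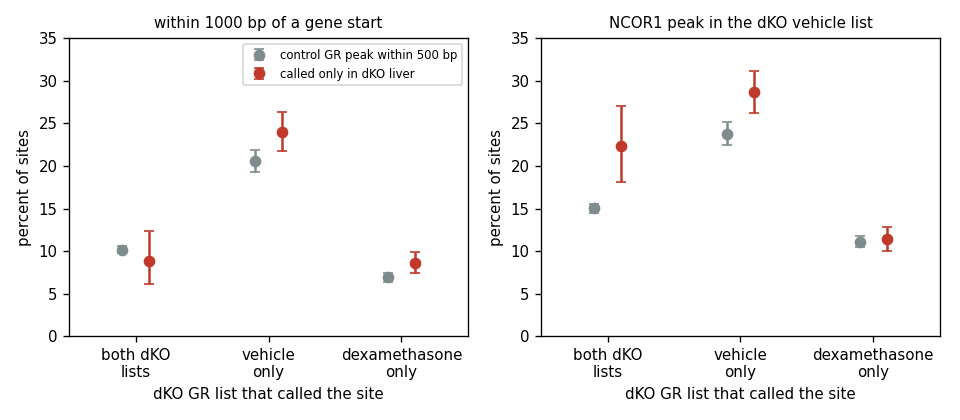
Percent of dKO GR sites within 1000 bp of a gene start (left) and percent that overlap an NCOR1 peak of dKO vehicle (right), by the dKO GR list that called the site, with bars for 95% Clopper-Pearson intervals. In both panels the sites called under vehicle only stand highest, at 24.0% and 28.6% for dKO-only sites (red) and 20.5% and 23.8% for shared sites (grey).

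Promoter windows, from 250 bp before to 50 bp after the start, were at hand for 17491 of 21896 protein-coding genes. A window was overlapped by 308 dKO-only sites. In the 341 windows they touched, the GC box GGGCGG occurred in 62.2% (56.8 to 67.3%), against 65.0% of windows at shared sites only and 46.2% of all 21262 windows. The ETS core CCGGAA occurred in 36.1% (31.0 to 41.4%), 30.0% and 18.7%, and CCAAT in 32.3, 32.3 and 38.2%. The glucocorticoid half-site AGAACA was found in 13.2% (9.79 to 17.3%), 14.9% and 16.2%, and AGGTCA in 13.8, 14.2 and 14.7%. Median GC content was 60.7, 62.7 and 56.3%. Windows at dKO-only sites thus resembled windows at shared sites in these counts, and both held more GC boxes and ETS cores than all windows. Their GC content was also higher than that of all windows, and its part was not tested.

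The sequences printed above belong to sites of 23.8 tags per 10 M at Ninj1, 17 at Ccdc85c, 14.4 at Arl5b, 7.87 at Thrb and 5.14 at Cd36, all under vehicle only. The Nr6a1 site was in both lists (10.8 under vehicle and 13.6 under dexamethasone) and overlapped NCOR1 peaks of 71.5 in control vehicle, 30.6 in control dexamethasone and 9.45 in dKO vehicle. The Thrb site had NCOR1 counts of 15.5 and 14.6 in control liver, and the Cd36 site 7.31 in control vehicle and 10.3 in dKO vehicle. No NCOR1 list had a peak at the Ninj1 site.

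The dKO-only sites were spread over many genes. A gene was assigned as the nearest protein-coding gene body within 100 kb, which says nothing of regulation. By this rule 3375 sites were assigned to 2758 genes, of which 2290 had 1 dKO-only site, 357 had 2 and 111 had 3 or more, and 328 sites had no gene. The genes with the most were Msi2, an RNA-binding protein (7 of its 18 dKO sites), Pde4d, a cyclic AMP phosphodiesterase (6 of 21), and Rad51b, a recombination protein (6 of 38), all long genes. Of all 21896 protein-coding genes, 12690 had a control GR peak assigned to them, so lacking one is common. Of the 2758 genes with a dKO-only site, 447 had no control GR peak assigned to them, and they hold 470 of the dKO-only sites. The strongest were at Tmem115, Atp5d, Cebpd and Apoc3, where the nearest control peaks, not assigned to these genes, lay 8138, 4378, 2301 and 6135.5 bp away. The genes of this paragraph were picked after their counts were seen.

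With gaps of at most 10 kb, 3357 dKO-only sites were single and 346 stood in groups, of which 164 had 2 sites and 5 had 3 or more. No comparison with shared sites was made. The largest group had 5 sites at Serpina1c, an alpha-1-antitrypsin gene, over chr12:103887367-103902254, which were all of the dKO sites assigned to that gene. Their counts ranged from 5.17 to 18.6 tags per 10 M. The Serpina1 genes, like Acot1 and Acot2, are close copies, so read placement among them is uncertain. The next groups were at Tgfb2 (4 sites, 6.74 to 9.40), Adck1 (3, 5.30 to 13.8), C2cd2 (3, 7.38 to 11.6) and Abhd2 (3, 14.1 to 16.9, all under dexamethasone only).

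Without matching on strength, gene lists of liver biology held dKO-only sites about as often as dKO sites in general. Of the 29888 dKO sites with an assigned gene, 11.3% were dKO-only. Among 13 lists the share ran from 0 of 5 sites near leukocyte markers to 9 of 46 (19.6%, 9.36 to 33.9%) near markers of endothelial, stellate and bile duct cells. The interval of 12 lists held 11.3%. The exception was acute phase and inflammation, with 4 of 91 sites (4.40%, 1.21 to 10.9%). No list was tested, and with 13 lists an interval that misses the general share is no finding on its own. The lists also differed in strength, with which the dKO-only share fell. The median tag count of their dKO sites ran from 10 (endothelial, stellate and bile duct markers) to 21.35 (glucocorticoid receptor targets). Over all dKO sites with an assigned gene it was 12.1. The lists were not compared by class of strength.

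**Figure D5:**
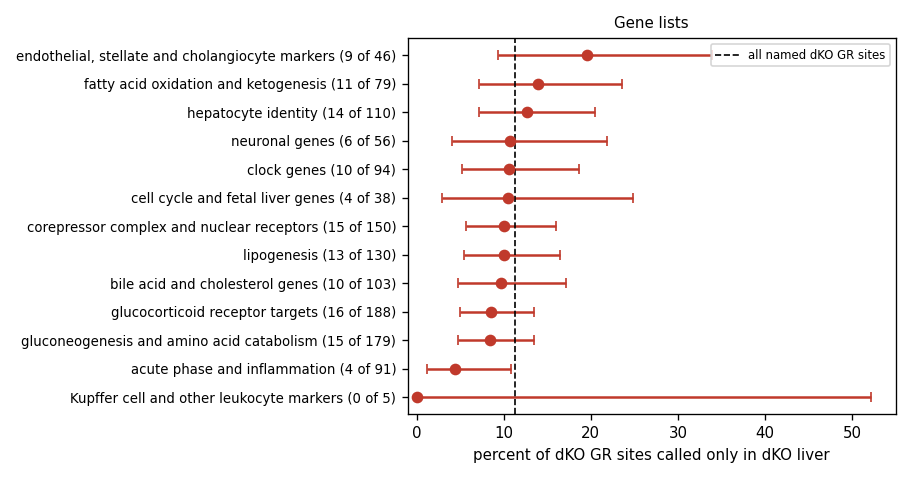
Percent of the dKO GR sites assigned to the genes of each list that were called only in dKO liver, with bars for 95% Clopper-Pearson intervals and the counts in the labels. The dashed line marks 11.3%, the share over all dKO sites with an assigned gene, and only the interval of acute phase and inflammation (4 of 91) lies below it.

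Glucocorticoid receptor targets had 16 dKO-only sites among 188 (8.51%), at 11 of the 30 genes, led by the Dusp1 (36.4), Ptpn1 (35.6) and Tat (31.7) sites described above. Genes of gluconeogenesis and amino acid catabolism had 15 of 179 (8.38%). Beside Tat these included a site 6142 bp from G6pc, the glucose-6-phosphatase gene (17.5 under vehicle), with a control vehicle peak of 44.2 at 678 bp, and one in Insr, the insulin receptor gene (11.9 under dexamethasone).

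Among lipid genes, lipogenesis had 13 of 130 (10.0%) and fatty acid oxidation with ketogenesis 11 of 79 (13.9%). The first was led by the Mlxipl site, a site 18164 bp from Insig2, a brake on SREBP processing (9.79 and 14.6), and one in Fads1, a fatty acid desaturase gene (12.1 under dexamethasone). The second was led by the Acot2 site and one 5846 bp from Acot1, which encodes a cytosolic acyl-CoA thioesterase (11.7 and 19.4). Bile acid and cholesterol genes had 10 of 103 (9.71%), led by Nr0b2 and by 2 sites in Nr1h4, the bile acid receptor FXR. One of these was called under dexamethasone only (13.9) and the other in both lists (12.4 and 13.9).

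Clock genes had 10 of 94 (10.6%). The strongest was 3572.5 bp from Cry2, a repressor of the clock (9.79 under vehicle and 21 under dexamethasone), and sites in Tef, a clock output factor (15.2), and 4132 bp from Per2, another clock repressor (15), were called under dexamethasone only. Of the 3, the Per2 site alone overlapped an NCOR1 peak (17.4 in control vehicle). Acute phase and inflammation genes had sites 1634 bp from Il6ra, the interleukin-6 receptor (16.4 under vehicle), near Crp, C-reactive protein (6.42 and 8.46), and near Rela, an NF-κB subunit (6.90 and 6.42).

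Hepatocyte identity genes had 14 of 110 (12.7%), led by sites 138.5 bp from Apoc3, an apolipoprotein (14.4 and 19.9), in Foxa2, a pioneer factor (19.7 under vehicle, with a control vehicle peak of 20.9 at 864 bp), and in Serpina1c (9.79 and 18.6). The corepressor and nuclear receptor list had 15 of 150 (10.0%). It was led by a site in Tbl1xr1, a subunit of the NCOR1 complex (15.6 and 21, with NCOR1 counts of 40.2 and 46.9 in control liver), one 39207 bp from Nr3c1, the GR gene itself (12.5 under dexamethasone, with a peak in all 3 NCOR1 lists), and one in Ppard (11.8 under dexamethasone).

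Cell cycle and fetal liver genes had 4 of 38 (10.5%), near Cdkn1b (8.35 under vehicle), in E2f1 (6.58 under vehicle) and at 2 places near Myc, both under dexamethasone only (7.52 at 2165 bp and 6.27 at 73210 bp). The 9 sites at markers of endothelial, stellate and bile duct cells were weak, with a median of 6.10, and the strongest, assigned to Epcam (9.25), Cdh5 (8.67) and Spp1 (7.83), lay 68662, 91185 and 41653 bp outside those genes. Neuronal genes, of a tissue not sampled, had 6 of 56 (10.7%). A site in Grin2b, a glutamate receptor subunit (11.4 under dexamethasone), and a site in Csmd1 (7.87 under vehicle) stood 45771 and 49389 bp from the nearest control peak, with local folds of 15.5 and 16.9, and a site in Syt1, a synaptic vesicle calcium sensor, was in both lists (7.71 and 10.5).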

How the data were processed

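Of the 7 deposited peak lists 4 are for GR and 3 for NCOR1, and each pools its group's libraries. The submitters' processing notes name Trim Galore 0.6.4, BWA 0.7.17, HOMER, bedtools 2.29.2 and mm10. Peaks of 200 bp were called with HOMER findPeaks against input, with at least 4-fold over input and over the local 10 kb and p-values no higher than 0.0001, per the file headers. The normalized tag count is a signal per 10 M tags deposited by the authors. The fold over input and the fold over local are ratios by the authors, per the file headers. The findPeaks score and the p-value of each peak are deposited values and were not used here. GR libraries had no size selection, whereas NCOR1 and input libraries did, per the labels.

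Peaks of the 2 dKO GR lists sharing 1 bp were merged, and a site was dKO-only where no control GR peak lay within 500 bp. A merged site took the higher of its tag counts. Shares carry 95% Clopper-Pearson intervals for counting error alone. Comparisons used a Mantel-Haenszel odds ratio over 5 classes of tag count (statsmodels 0.14.6, scipy 1.17.1), adjusted by Benjamini-Hochberg over 8 tests with a threshold of 0.05, and the calculation was tested on simulated data. A missing peak is one not called at the depth of its list, which does not show absence. The text names the 8 strongest dKO-only sites of each class, up to 3 per gene list, those of the 20 strongest with an NCOR1 peak and 3 on each side of the limit. Other sites are said to be picked later, and 1 site that this rule names is not reported here. The sites and gene lists were chosen with earlier results of these data known. No genome was used here, so motifs were counted only in RefSeq promoter windows.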

Additional observations from a re-analysis of the deposited data

How the results depend on the processing

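The number of dKO-only sites stayed between 3428 and 4312 under 4 other distance rules. It was 1753 with at least 8-fold over input, 331 with 8-fold over the local 10 kb, 421 among the upper part of each dKO list by tag count and 349 when both dKO lists had to call a site, a setting added after the data were seen. The lower share of control NCOR1 peaks kept its direction and its side of the threshold under all 12 settings tried for each list, with odds ratios of 0.296 to 0.617 for control vehicle and 0.223 to 0.496 for control dexamethasone. No setting kept only the sites in both dKO lists. There the crude shares were not lower at dKO-only sites (46.4 against 44.3% for control vehicle, 48.1 against 46.7% for control dexamethasone). For NCOR1 of dKO vehicle the odds ratio passed the threshold upward at 1.31 with no classes, 1.13 among sites of 1 dKO list and 1.28 in the vehicle list alone, and turned downward at 0.823 with NCOR1 peaks of at least 8-fold and 0.875 with classes of local fold. The odds ratio for lying inside a gene lost the threshold at 1.00 with no classes, 1.07 among sites of 1 list, 1.05 with classes within each kind of calling list, 1.04 without sites near a start and 1.04 in the dexamethasone list alone, and turned at 0.845 with classes of local fold. That for gene starts and ends lost it at 1.10 with classes of local fold and turned at 0.963 in the dexamethasone list alone. The causes were not tested. The settings by kind of calling list, by local fold and by single list were added after the data were seen. So were those among sites of 1 list, without sites near a start and by stranded gene start. No paired analysis was possible because each list pools its replicates, and for the same reason no replicate could be left out. The planned share of glucocorticoid response elements in whole peaks was not run. What depth limits in these lists was not tested.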
